A study of Mus musculus with 10 samples.

Results

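The 10 genes described here encode the high-affinity IgE receptor FcεRI and the proteins that act first when it is cross-linked: the receptor chains Fcer1a, Ms4a2 and Fcer1g, the kinases Lyn, Syk and Btk, the membrane adaptors Lat and Lat2, the phospholipase Plcg2, and the inhibitory IgG receptor Fcgr2b. They were chosen by name, and each matched 1 Ensembl row of a table with 49671 gene rows in all. All 10 had at least 73 counts in every library and are among the 11247 genes that passed the filter on low counts. FcεRI is the receptor through which mast cells bind IgE. When antigen cross-links it, Lyn phosphorylates tyrosine motifs in the receptor's β and γ chains, Syk binds the γ chain, and Syk and Btk pass the signal through Lat, Lat2 and phospholipase Cγ to calcium release and degranulation. Fcgr2b carries an inhibitory motif that recruits the lipid phosphatase SHIP1 and dampens the same cascade.

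Expression was measured by full-length RNA sequencing of mast cells cultured from the marrow of wild type C57BL/6 mice in interleukin 3 (IL-3), known as BMMCs. The age tag gives 6 to 8 weeks, the same span that the growth protocol gives for the culture. In 2 groups stem cell factor (SCF, the KIT ligand) was combined with transforming growth factor β (TGF-β) at 1 ng/mL (the low-dose combination, 2 libraries) or at 10 ng/mL (the high-dose combination, 2 libraries), and 1 group had SCF at 100 ng/mL (2 libraries). TGF-β without SCF was given at 1 ng/mL (low-dose TGF-β, 1 library) and at 10 ng/mL (high-dose TGF-β, 1 library), and the last group stayed in IL-3 (2 libraries). Stimulation lasted 72 h; the IL-3 that all groups share is 5 ng/mL by the growth protocol but 10 ng/mL by the source names, and the labels give no SCF dose for the combinations. Low-dose TGF-β carries replicate number 2 and high-dose TGF-β number 1, so dose and number cannot be told apart there. Nothing in the labels ties the libraries of a group to separate cultures or animals, so the p-values stand against a spread between libraries that may be technical alone.

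Gene counts ranged from 1237382 to 2323916 per library, and those of the 10 genes made up 1.02% to 1.57% of them. Levels are CPM (counts relative to a library total of 1000000) scaled over the tested genes by TMM, which trims extreme genes, and 3 counts corresponded to 1.26 to 2.55 CPM. The mast cell label was met by its markers: 10 of 10 were detected, with summed levels of 48300 to 84100 CPM. Tpsab1 among them lay under 3 counts in both IL-3 libraries. Several markers of other cells lay at 0 counts in all 10 libraries. Among them were Ms4a1, Ebf1 and Igkc of B cells, Cd3e of T cells, S100a8 and S100a9 of neutrophils, and C1qb and Marco of macrophages. Other macrophage markers were detected: Csf1r at 7.02 to 14.5 CPM, Lyz2 at 1.09 to 20.2 CPM and Adgre1 at 1.6 to 8.9 CPM. The 5 basophil markers summed to 476 to 707 CPM and the 7 erythroid and platelet markers to 1320 to 1840 CPM. Cd200r3 and Itga2b, which BMMCs also express, carried these sums. The basophil markers Mcpt8, Prss34 and Ccr3 were also detected, at up to 25.0, 17.9 and 19.2 CPM. In bulk RNA, fewer cells of a type and less RNA per cell cannot be told apart.

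All 10 genes are annotated as protein coding on GRCm38. The α chain gene Fcer1a (ENSMUSG00000005339; chr1:173221284-173227214), the γ chain gene Fcer1g (ENSMUSG00000058715; chr1:171229572-171234365) and Fcgr2b (ENSMUSG00000026656; chr1:170958617-170976547) lie on the same chromosome, and the β chain gene Ms4a2 (ENSMUSG00000024680) at chr19:11615523-11623719. The kinase genes are Lyn (ENSMUSG00000042228; chr4:3678115-3813122), Syk (ENSMUSG00000021457; chr13:52583173-52648792) and Btk (ENSMUSG00000031264; chrX:134542336-134583570). The downstream genes are Lat (ENSMUSG00000030742; chr7:126363824-126369570), Lat2 (ENSMUSG00000040751; chr5:134600022-134615025) and Plcg2 (ENSMUSG00000034330; chr8:117498291-117635142). Lat2 shares 952 exon bases with Rfc2, a replication factor gene on the opposite strand, and Lyn shares 248 with the opposite-strand non-coding gene Gm26857. The SmartSeq2 protocol does not mark strand, so reads from these shared bases cannot be told apart. Fcgr2b and the activating receptor gene Fcgr3 are close relatives, so their counts are uncertain where reads align to both.

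Per kilobase of exon, the receptor chains stood above the signalling genes. Fcer1a had a median of 7048 CPM per kb over the 10 libraries, Fcer1g 965.5, Ms4a2 513.8 and Lat2 371.6 CPM per kb. Next in that order were Btk at 126.6, Lat at 111.5 and Lyn at 65.8 CPM per kb. Plcg2 (19.9), Fcgr2b (11.6) and Syk (9.20 CPM per kb) were the lowest of the 10. By mean CPM, Fcer1a was the 9th most abundant of all 11247 tested genes. The spread over libraries differed between the genes: the highest library exceeded the lowest 2.74-fold for Lat and for Fcgr2b, 2.01-fold for Fcer1a and only 1.16-fold for Ms4a2.

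**Figure D1:**
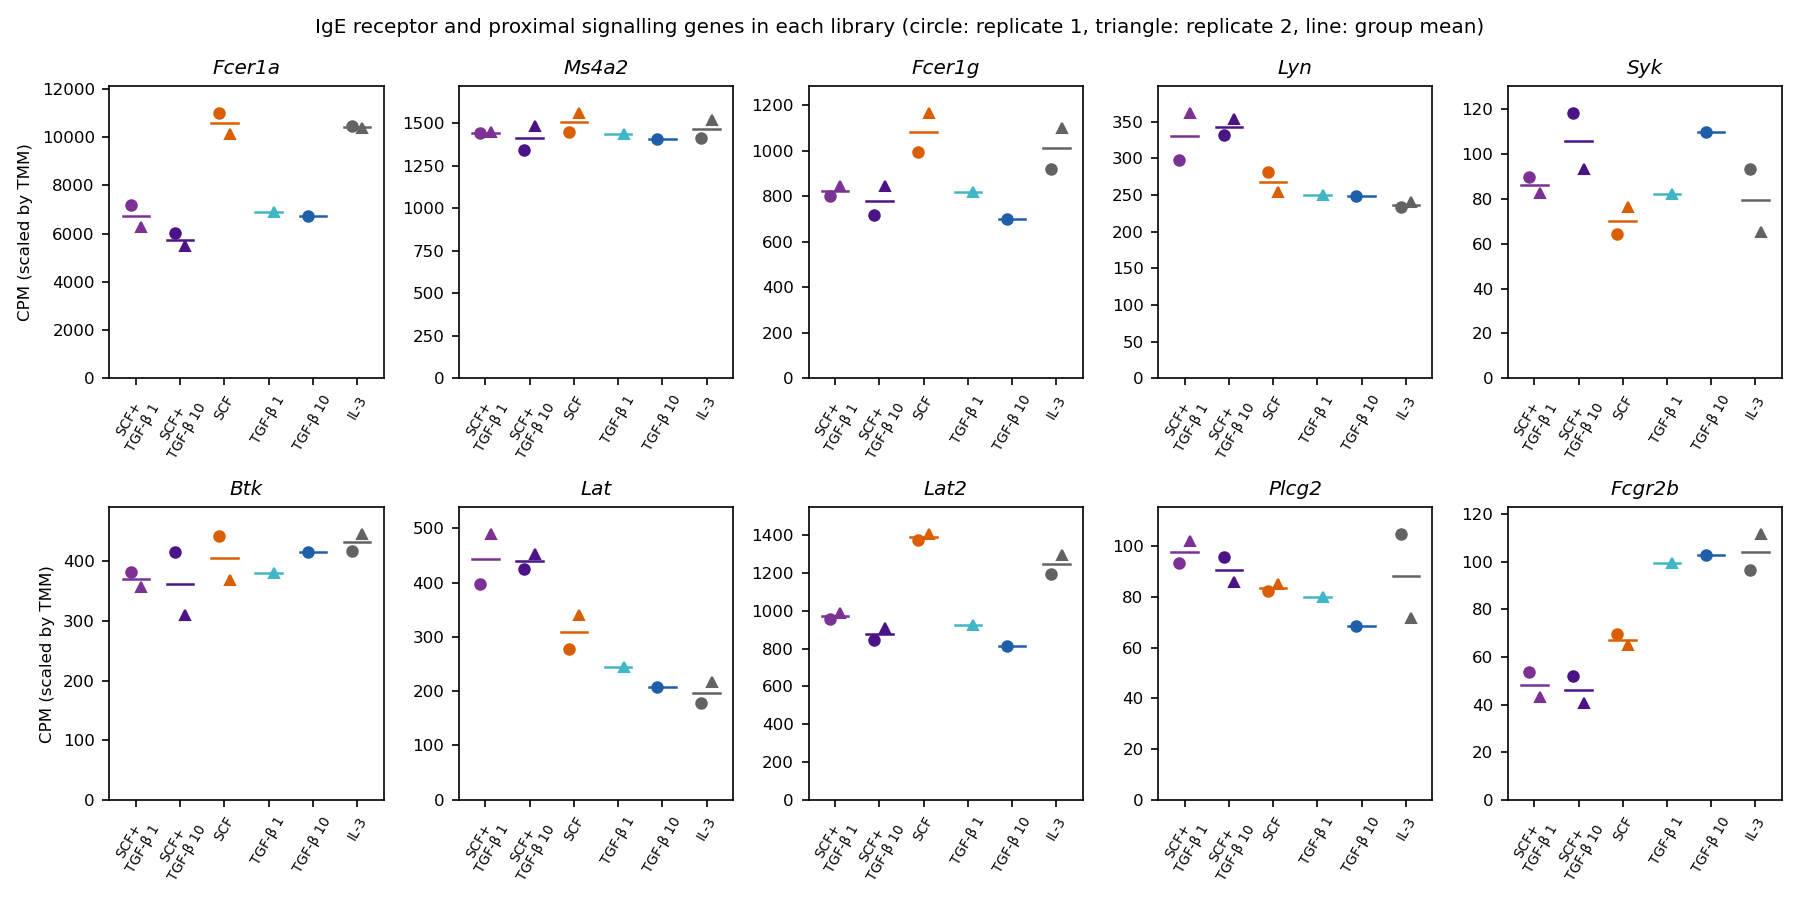
CPM scaled by TMM (vertical axes, from 0) of the 10 genes in each library, grouped by treatment, with TGF-β doses in ng/mL; circles are replicate 1, triangles replicate 2 and lines group means. Fcer1a lies at 5487 to 7168 CPM in the 6 libraries with TGF-β and at 10150 to 11020 CPM in the 4 without it, while Ms4a2 stays between 1345 and 1563 CPM.

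At an adjusted p under 0.05 (edgeR's quasi-likelihood test with Benjamini-Hochberg adjustment over all tested genes), SCF against IL-3 called, among the 10 genes, 1 higher and 1 lower, where 9.17% of all tested genes were called in either direction, 5.71% higher and 3.46% lower. The low-dose combination against SCF called 2 lower (background 4.64% in either direction, 1.89% higher, 2.75% lower), and the high-dose combination 1 higher and 3 lower (background 8.37%, 3.78% higher, 4.59% lower). TGF-β alone against IL-3 called 2 lower (background 3.48%, 1.36% higher, 2.12% lower). The combinations against TGF-β alone called 2 higher and 1 lower (background 24.7%, 13.3% higher, 11.4% lower). The median log2 fold change of the 10 genes was 0.03, -0.10, -0.13, -0.08 and 0.04 in these comparisons, beside -0.02, 0.01, -0.0010, -0.02 and -0.01 over all tested genes. The comparisons share control libraries, so their values are not independent of one another.

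Of the receptor chains, the IgE-binding α chain fell with TGF-β, whether or not SCF was present. Fcer1a stood at 7168 and 6277 CPM in the low-dose combination and at 6016 and 5487 CPM in the high-dose combination, against 11020 and 10150 CPM with SCF. All 4 libraries with both factors lay below both SCF libraries. The log2 fold change was -0.65 ± 0.11 at the lower dose (SE; edgeR, adjusted p = 0.00188) and -0.88 ± 0.11 at the higher dose (adjusted p = 7.75e-05). Without replicate 2 of the low-dose combination, the value at the lower dose was -0.56 (adjusted p = 0.0599).

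Fcer1a stood at 6900 CPM with low-dose and 6712 CPM with high-dose TGF-β, against 10480 and 10380 CPM in IL-3. Both TGF-β libraries lay below both IL-3 libraries, and the log2 fold change of their mean was -0.62 ± 0.11 (adjusted p = 0.00393). SCF against IL-3 had a log2 fold change of 0.02 ± 0.11 for Fcer1a, with a 95% interval of -0.22 to 0.26. By group mean, SCF was highest, overlapping IL-3 next to it; then came, with a gap, low-dose TGF-β, the low-dose combination and high-dose TGF-β, whose values overlapped, and the high-dose combination was lowest. The high-dose combination differed from the low-dose one by -0.23 ± 0.11 on the log2 scale, which did not pass the test (unadjusted p = 0.0623, adjusted p = 1). The 10 mast cell markers, none of which is a receptor chain, summed to 52400 and 63200 CPM in the low-dose and 51100 and 58400 CPM in the high-dose combination, against 71600 and 84100 CPM with SCF. With TGF-β alone they summed to 48300 and 48900 CPM, against 56900 and 60000 CPM in IL-3. The sums were lower with TGF-β, but the list went both ways: 1 marker was called higher and 3 lower in the low-dose combination, 1 higher and 4 lower in the high-dose combination, and 2 higher and 3 lower with TGF-β alone. The granule proteoglycan gene Srgn was lower in all 3 comparisons (-0.90 ± 0.11, -1.06 ± 0.11 and -0.89 ± 0.11). The tryptase gene Tpsab1 was higher in all 3 (3.70 ± 0.28, 3.93 ± 0.28 and 3.50 ± 0.67). Tpsab1 lay under 3 counts in IL-3, at 0.518 and 1.40 CPM, and at 4.5 and 11.4 CPM with SCF. It stood at 17.0 CPM with low-dose and 6.99 CPM with high-dose TGF-β. The 6 dendritic cell markers also moved with TGF-β, summing to 8.00 to 10.1 CPM in the low-dose and 7.06 to 16.5 CPM in the high-dose combination, against 0 to 0.501 CPM with SCF, and to 18.7 and 38.9 CPM with low-dose and high-dose TGF-β, against 0 to 1.55 CPM in IL-3. Itgax carried these sums and was called higher in all 3 comparisons, while Xcr1, Siglech and Ccr7 were at 0 in every library. The 5 basophil markers summed to 661 to 707 CPM in the low-dose and 607 to 664 CPM in the high-dose combination. With SCF they summed to 604 to 633 CPM and in IL-3 to 558 to 679 CPM. Low-dose and high-dose TGF-β gave 522 and 476 CPM. Among them Ccr3 was called lower in both combinations (-1.59 ± 0.41 and -1.95 ± 0.42), and none was called higher in these 3 comparisons. With SCF against IL-3, Mcpt8 was called higher and Prss34 lower. The part of these lists in the Fcer1a result was not tested.

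The γ chain passed the test in 1 comparison, in which it was lower, and the β chain in none. Fcer1g, which FcεRI shares with activating IgG receptors, had 799.6 and 843.3 CPM in the low-dose combination, 715.4 and 844.3 CPM in the high-dose combination, and 992.2 and 1167 CPM with SCF. The libraries with both factors lay below those with SCF, by -0.39 ± 0.14 (adjusted p = 0.138) at the lower dose and -0.47 ± 0.14 (adjusted p = 0.0454) at the higher dose on the log2 scale. The call at the higher dose was lost with DESeq2 (adjusted p = 0.101) and without any of the 4 libraries compared (adjusted p = 0.0515 to 0.348). TGF-β alone gave 819.7 CPM at the lower dose and 701.7 CPM at the higher dose, against 921.3 and 1101 CPM in IL-3 (-0.41 ± 0.14, adjusted p = 0.128), again with both TGF-β libraries below both IL-3 libraries.

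Ms4a2, whose product amplifies the signal of the receptor, had 1443 and 1447 CPM in the low-dose combination, 1345 and 1482 CPM in the high-dose combination, and 1451 and 1563 CPM with SCF. TGF-β alone gave 1434 CPM at the lower dose and 1407 CPM at the higher dose, against 1416 and 1519 CPM in IL-3. All groups overlapped or lay close to one another. The 95% intervals of the log2 fold change were -0.31 to 0.19 at the lower dose and -0.34 to 0.16 at the higher dose with SCF, and -0.30 to 0.20 for TGF-β alone, none of which reaches the estimates for Fcer1a.

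The ratio of 2 genes within a library does not depend on scaling between libraries. Counts per exon base of Fcer1a over those of Ms4a2 were 13.1 ± 1.25 in the low-dose combination, 11.5 ± 1.54 in the high-dose combination and 19.9 ± 2.20 with SCF (SD, n = 2 each). Low-dose TGF-β gave 13.6 and high-dose TGF-β 13.5, against 20.1 ± 1.12 in IL-3 (SD, n = 2). The 6 libraries with TGF-β, at 10.4 to 14.0, did not overlap the 4 without it, at 18.3 to 21.4. Fcer1a over Fcer1g was 7.18 ± 0.94 in the low-dose and 6.53 ± 1.18 in the high-dose combination, against 8.67 ± 1.49 with SCF (SD, n = 2 each). Here the low-dose combination overlapped SCF and the high-dose combination lay below it. Low-dose TGF-β gave 7.37 and high-dose TGF-β 8.38, against 9.96 and 8.26 in IL-3, so TGF-β alone and IL-3 overlapped for this ratio.

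**Figure D2:**
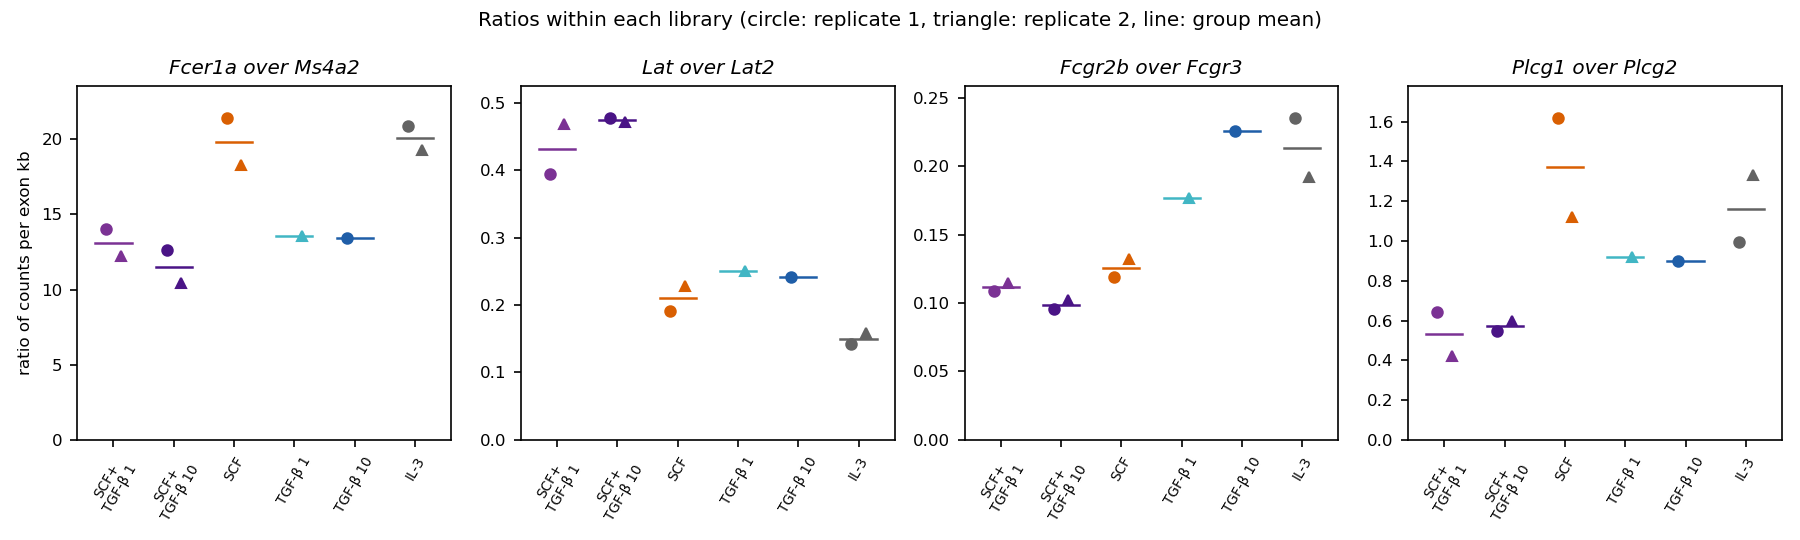
Ratios of counts per exon kilobase within each library (vertical axes, from 0) for Fcer1a over Ms4a2, Lat over Lat2, Fcgr2b over Fcgr3 and Plcg1 over Plcg2; circles are replicate 1, triangles replicate 2, lines group means, and TGF-β doses are in ng/mL. Fcer1a over Ms4a2 separates the libraries with TGF-β from those without, whereas Lat over Lat2 is highest, at 0.394 to 0.477, in the 4 libraries with SCF and TGF-β.

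The stretches of 250 bases before the RefSeq starts of the receptor chain genes and of Fcgr2b are shown because these genes responded differently. They are printed 5′ to 3′ on the gene's strand, from RefSeq's table on GRCm38.p6, with capitals marking matches on either strand to the GATA word (GATA preceded by A or T and followed by A or G, as GATA factors bind) and to CAGAC, a word within SMAD binding elements; the searched words do not overlap one another here. The stretches are chr1:173227230-173227479 for Fcer1a, chr19:11623720-11623969 for Ms4a2, chr1:171234350-171234599 for Fcer1g and chr1:170976072-170976321 for Fcgr2b, all on the minus strand.
Fcer1a: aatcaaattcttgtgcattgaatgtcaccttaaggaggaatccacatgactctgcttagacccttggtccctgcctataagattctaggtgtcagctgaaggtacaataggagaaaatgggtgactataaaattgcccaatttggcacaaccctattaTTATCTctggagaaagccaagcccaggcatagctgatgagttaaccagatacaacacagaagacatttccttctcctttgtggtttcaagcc
Ms4a2: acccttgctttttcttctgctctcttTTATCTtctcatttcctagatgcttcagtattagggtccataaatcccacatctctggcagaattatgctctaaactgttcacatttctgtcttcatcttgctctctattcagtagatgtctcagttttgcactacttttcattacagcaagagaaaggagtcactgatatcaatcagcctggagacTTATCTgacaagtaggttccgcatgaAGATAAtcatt
Fcer1g: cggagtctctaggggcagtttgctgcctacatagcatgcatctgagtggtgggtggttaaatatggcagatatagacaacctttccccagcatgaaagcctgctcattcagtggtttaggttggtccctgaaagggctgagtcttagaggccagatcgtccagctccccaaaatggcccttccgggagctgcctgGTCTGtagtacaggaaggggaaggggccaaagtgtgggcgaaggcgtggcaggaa
Fcgr2b: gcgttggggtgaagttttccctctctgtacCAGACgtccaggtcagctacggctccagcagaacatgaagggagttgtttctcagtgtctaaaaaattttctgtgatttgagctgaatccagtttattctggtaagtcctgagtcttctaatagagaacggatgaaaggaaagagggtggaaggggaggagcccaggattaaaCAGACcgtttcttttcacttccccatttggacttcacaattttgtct
The GATA words matched 1 time in Fcer1a, 92 bases before the start, and 3 times in Ms4a2, 224, 37 and 11 bases before it. CAGAC or its reverse complement matched 1 time in Fcer1g, 55 bases before the start, and 2 times in Fcgr2b, 220 and 47 bases before it. Of 32851 promoter stretches of this length in the table, 26.5% held at least 1 GATA word and 42.2% at least 1 CAGAC, and 6.4% and 11.7% held at least 2. RefSeq's table held a promoter for 8 of the 10 genes. Neither word was found in the stretches of Lat and Btk; CAGAC was found in 1 of the 2 stretches of Syk, a GATA word in the other, and a GATA word in Plcg2.

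Among the kinases, Lyn was highest where SCF and TGF-β were combined, and Syk and Btk passed no test. Lyn, which phosphorylates the receptor chains, had 297.3 and 362.6 CPM in the low-dose combination and 332.5 and 354 CPM in the high-dose combination, against 249.5 CPM with low-dose and 248.7 CPM with high-dose TGF-β. All 4 libraries with both factors exceeded both libraries with TGF-β alone, and the log2 fold change of the means over doses was 0.43 ± 0.13 (adjusted p = 0.0195). Levels were 281.3 and 254.6 CPM with SCF and 233.2 and 240.7 CPM in IL-3, so every SCF library also exceeded both IL-3 libraries, but neither SCF against IL-3 (0.18 ± 0.14, adjusted p = 0.491) nor the high-dose combination against SCF (0.36 ± 0.14, adjusted p = 0.151) passed the test. The call for Lyn was lost without either library of TGF-β alone (adjusted p = 0.0892 and 0.101) and without replicate 2 of either combined group (adjusted p = 0.0531 and 0.0616). The opposite-strand gene Gm26857 stood at 0.23 ± 0.20 in the same comparison (adjusted p = 0.428).

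Syk, the kinase that docks on the phosphorylated γ chain, had 89.7 and 82.5 CPM in the low-dose combination, 118.4 and 93.4 CPM in the high-dose combination, and 64.1 and 76.3 CPM with SCF. Every library with both factors exceeded both SCF libraries, with log2 fold changes of 0.30 ± 0.20 (adjusted p = 0.498) at the lower dose and 0.60 ± 0.19 (adjusted p = 0.0636) at the higher dose. There the value passed the threshold when low-count genes were kept (adjusted p = 0.0276) and when only the groups compared were fitted (adjusted p = 0.0402). TGF-β alone gave 82.3 CPM at the lower dose and 109.6 CPM at the higher dose, against 93.3 and 65.3 CPM in IL-3, and these groups overlapped. With 93 to 265 counts per library, Syk was measured less precisely than the receptor chains.

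Btk, a Tec family kinase that activates phospholipase Cγ, ranged from 309.5 to 445.6 CPM over all libraries. Group means were 369.5 ± 18.1 and 362.1 ± 74.4 CPM in the low-dose and high-dose combinations and 405.7 ± 51.4 CPM with SCF (SD, n = 2 each). TGF-β alone gave 381 CPM at the lower dose and 415 CPM at the higher dose, against 431.6 ± 19.8 CPM in IL-3. The 95% interval of its log2 fold change in the high-dose combination against SCF ran from -0.49 to 0.16, and the groups overlapped.

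The 2 adaptors moved in opposite directions when high-dose TGF-β was added to SCF. Lat, the transmembrane scaffold that assembles phospholipase Cγ with other adaptors, rose with SCF and was highest with SCF and TGF-β. Lat2 (also called NTAL or LAB), a related scaffold that is phosphorylated after both FcεRI and KIT engagement, fell with TGF-β in the presence and absence of SCF.

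Lat had 277.3 and 339.7 CPM with SCF, against 178.8 and 216.1 CPM in IL-3. Both SCF libraries exceeded both IL-3 libraries, with a log2 fold change of 0.65 ± 0.16 (adjusted p = 0.0171). That call was lost without SCF replicate 2 (adjusted p = 0.172) and without replicate 1 or 2 of IL-3 (adjusted p = 0.135 and 0.0550). SCF with TGF-β gave 398.3 and 489.6 CPM at the lower dose and 425.4 and 452.9 CPM at the higher dose, all above both SCF libraries, with log2 fold changes over SCF of 0.52 ± 0.15 (adjusted p = 0.0634) and 0.51 ± 0.15 (adjusted p = 0.0477). The value at the higher dose missed the threshold with DESeq2 (adjusted p = 0.116) and without replicate 1 of SCF (0.327) or replicate 1 or 2 of the high-dose combination (0.133 and 0.222). The value at the lower dose passed it with limma-voom (adjusted p = 0.0419), with low-count genes kept (0.0139) and without replicate 1 of the low-dose combination (0.0435).

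TGF-β alone left Lat at 244.4 CPM at the lower dose and 208.3 CPM at the higher dose, of which the higher-dose value lay within the span of the IL-3 libraries (0.20 ± 0.16, adjusted p = 0.628). Against TGF-β alone, SCF with TGF-β was 1.96-fold higher (log2 fold change 0.97 ± 0.14, adjusted p = 0.000119), and all 4 libraries with both factors exceeded both with TGF-β alone. This call held in all 13 alternatives of that comparison.

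Lat2 had 957.5 and 990.5 CPM in the low-dose combination and 844.6 and 910.6 CPM in the high-dose combination, against 1374 and 1407 CPM with SCF. The groups did not overlap, and the log2 fold change was -0.51 ± 0.12 at the lower dose (adjusted p = 0.0174) and -0.66 ± 0.12 at the higher dose (adjusted p = 0.00160). TGF-β alone gave 924.9 CPM at the lower dose and 814.4 CPM at the higher dose, below 1195 and 1298 CPM in IL-3 (-0.52 ± 0.12, adjusted p = 0.0225). The call at the lower dose with SCF was lost without any 1 of the 4 libraries compared (adjusted p = 0.0757 to 0.137), and that for TGF-β alone without the high-dose library (0.209) or replicate 1 or 2 of IL-3 (0.0523 and 0.109). SCF against IL-3 did not pass the test (0.16 ± 0.12, adjusted p = 0.460).

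Rfc2, with which Lat2 shares exon bases on the other strand, was counted at 764.6 to 1213 CPM. It had log2 fold changes of -0.40 ± 0.12 and -0.54 ± 0.12 for the low-dose and high-dose combinations against SCF (adjusted p = 0.0725 and 0.00818) and -0.42 ± 0.12 for TGF-β alone against IL-3 (adjusted p = 0.0637). Counts per exon base of Rfc2 over Lat2 stayed between 0.339 and 0.437 in all 10 libraries. How far the counts of the 2 genes share a source was not tested.

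Lat over Lat2, per exon base within a library, was 0.431 ± 0.052 in the low-dose combination, 0.474 ± 0.0042 in the high-dose combination and 0.210 ± 0.026 with SCF (SD, n = 2 each). It was 0.250 with low-dose and 0.242 with high-dose TGF-β, against 0.150 ± 0.011 in IL-3 (SD, n = 2). The 4 libraries with both factors, at 0.394 to 0.477, lay above all 6 others, at 0.142 to 0.250. By these counts Lat2 was the more abundant of the 2 adaptor mRNAs per exon base in every library. The exon length of Lat2 includes the bases shared with Rfc2, so these per-base values carry that uncertainty.

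Plcg2, a phospholipase Cγ that releases inositol trisphosphate, passed no test. It had 93.5 and 102.1 CPM in the low-dose combination, 95.6 and 85.8 CPM in the high-dose combination, and 82.1 and 85.1 CPM with SCF. TGF-β alone gave 79.8 CPM at the lower dose and 68.4 CPM at the higher dose, against 104.7 and 71.6 CPM in IL-3. The combined groups lay above SCF and above TGF-β alone in every library, with log2 fold changes of 0.22 ± 0.18 at the lower dose, 0.12 ± 0.18 at the higher dose and 0.35 ± 0.17 against TGF-β alone (adjusted p = 0.629, 0.788 and 0.146). The related phospholipase gene Plcg1 fell instead, as given with the other pathway genes.

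The inhibitory receptor gene Fcgr2b was lower in every library with SCF than in every library without it. Levels were 53.5 and 43.3 CPM in the low-dose combination and 51.8 and 40.7 CPM in the high-dose combination, against 99.3 CPM with low-dose and 102.6 CPM with high-dose TGF-β. All 4 libraries with both factors lay at about the same level, far below both with TGF-β alone, and the log2 fold change was -1.08 ± 0.16 (adjusted p = 0.000136), a call that held in all 13 alternatives of that comparison. SCF gave 69.6 and 64.9 CPM, against 96.4 and 111.6 CPM in IL-3, and these groups did not overlap (-0.62 ± 0.18, adjusted p = 0.0398). That call was lost with DESeq2 (adjusted p = 0.153) and without any 1 of the 4 libraries compared (0.0593 to 0.250).

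Against SCF, Fcgr2b stood at -0.46 ± 0.19 in the low-dose and -0.53 ± 0.19 in the high-dose combination on the log2 scale, which did not pass the test (adjusted p = 0.213 and 0.103). TGF-β alone stood at -0.04 ± 0.18 against IL-3 (95% interval -0.42 to 0.34). Over Fcgr3, the activating IgG receptor that uses the γ chain, Fcgr2b was 0.112 ± 0.0043 and 0.0989 ± 0.0047 per exon base in the low-dose and high-dose combinations and 0.126 ± 0.0093 with SCF (SD, n = 2 each). The ratio was 0.177 with low-dose and 0.226 with high-dose TGF-β, against 0.214 ± 0.030 in IL-3, and the 6 libraries with SCF did not overlap the 4 without it. Fcgr3 itself passed no test. Of the 8 B cell markers, a cell type that uses Fcgr2b, Ms4a1, Ebf1 and Igkc were at 0; the 8 summed to 0.894 to 4.21 CPM in the combined groups, 3.15 to 8.51 with SCF, 6.99 to 7.64 with TGF-β alone and 5.70 to 11.9 in IL-3, mostly from Blnk. The 9 macrophage and monocyte markers summed to 14.3 to 27.9 CPM in the combined groups and 25.2 to 32.5 CPM with SCF. With TGF-β alone they summed to 21.0 to 25.5 CPM and in IL-3 to 29.5 to 36.8 CPM. Among them Lyz2 alone was called, lower in the high-dose combination against SCF (-3.54 ± 0.64, adjusted p = 0.00156). The 6 T and NK cell markers summed to 5.05 to 11.4 CPM in the combined groups, 2.00 to 6.93 with SCF, 0.848 to 1.55 with TGF-β alone and 0 to 0.518 in IL-3, mostly from Ncr1, with Cd3e, Cd3g and Cd4 at 0. In the combinations against TGF-β alone, edgeR called Blnk lower (-1.884 ± 0.65, adjusted p = 0.0441) and Ncr1 higher (3.135 ± 0.90, adjusted p = 0.0168). Blnk had 79 and Ncr1 80 counts in total over the 10 libraries. The part of these 3 lists in the Fcgr2b result was not tested.

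**Figure D3:**
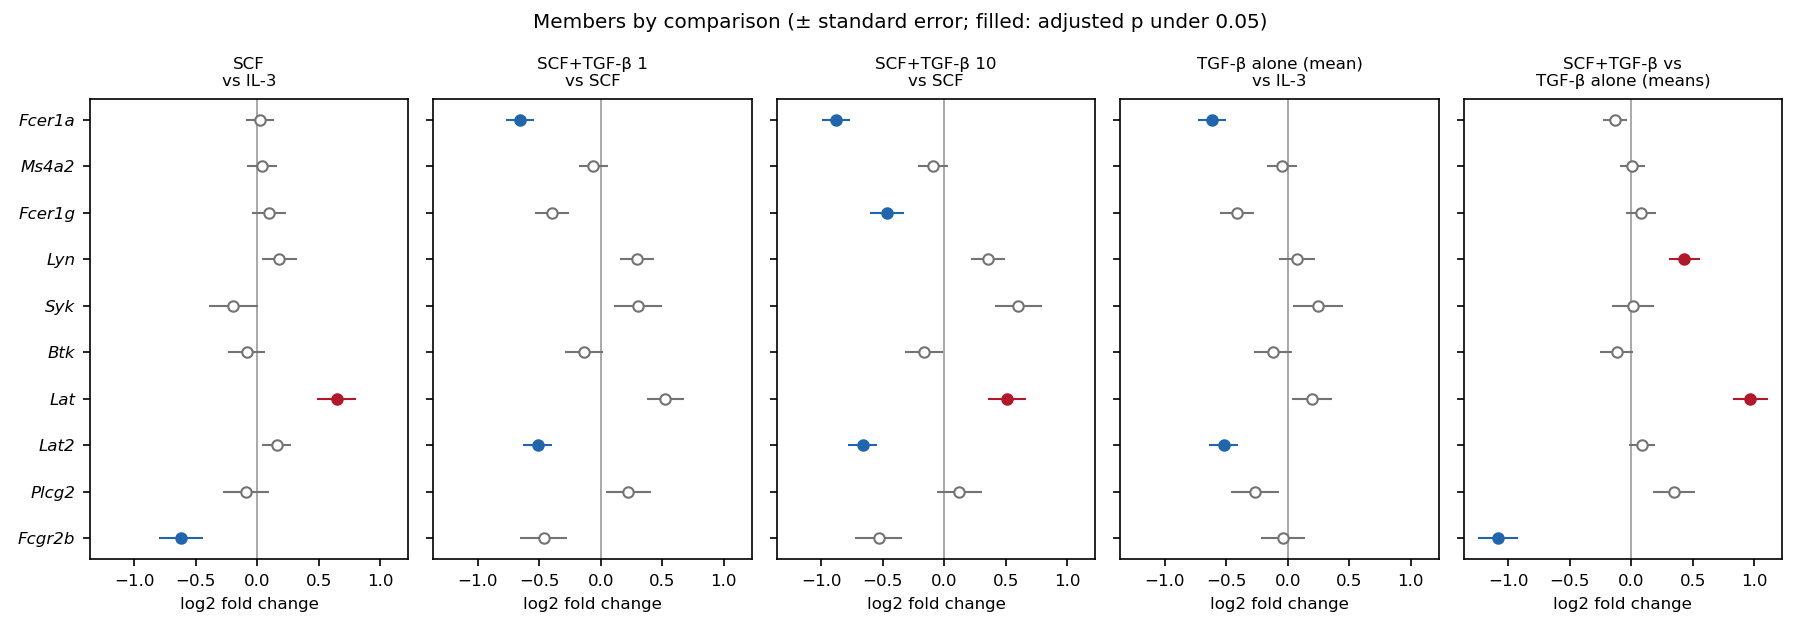
Log2 fold changes (horizontal axes) of the 10 genes in 5 comparisons, with standard errors; filled symbols passed the test (adjusted p under 0.05), red for higher and blue for lower, and TGF-β doses are in ng/mL. Fcer1a and Lat2 are lower in the 3 panels of TGF-β, Lat is higher and Fcgr2b lower in the panels of SCF, and Ms4a2 and Btk are open throughout.

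The 2 doses with SCF and the dependence of TGF-β on SCF were tested directly. Between the high-dose and low-dose combinations, edgeR called 0 of the 10 genes (background 0.0178%, 0.00889% in each direction) and 0 had an unadjusted p under 0.05; DESeq2 and limma-voom called 0 as well. The interaction, which asks whether TGF-β changed a gene differently with and without SCF, also called 0 of the 10 (background 0.293%), with 0 at an unadjusted p under 0.05 and 0 by DESeq2 and limma-voom. For Fcer1a the difference between the responses was -0.15 ± 0.15 (95% interval -0.47 to 0.16). Those farthest from 0 were -0.46 ± 0.24 for Fcgr2b (95% interval -0.97 to 0.05), 0.44 ± 0.25 for Plcg2 (-0.09 to 0.97) and 0.32 ± 0.21 for Lat (-0.12 to 0.77). These intervals are wide enough to hold differences as large as the responses themselves for Fcgr2b, Plcg2 and Lat.

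Of 66 further genes of the pathway on 4 lists, 55 passed the filter. SCF against IL-3 called 2 of the 55 higher and 6 lower (14.5%, against 9.17% of all tested genes). Adding TGF-β to SCF called 3 higher and 6 lower at each dose (16.4%, against 4.64% of all tested genes at the lower and 8.37% at the higher dose). TGF-β alone called 3 higher and 1 lower (7.27%, against 3.48%), and the combinations against TGF-β alone 6 higher and 11 lower (30.9%, against 24.7%). Of the 9 other Fc receptors, Fcgr3 alone passed the filter.

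Among the 27 tested kinases, adaptors and effectors, adding TGF-β to SCF called 1 higher and 3 lower at the lower dose (background 4.64% of all tested genes) and 1 higher and 4 lower at the higher dose (background 8.37%). Plcg1, which with Plcg2 makes up the phospholipase Cγ pair, fell by 1.14 ± 0.18 at both doses (adjusted p = 0.00100 and 0.000605), to 109.5 and 78.3 CPM and 95.6 and 93.9 CPM, against 242.8 and 174.6 CPM with SCF. Plcg1 over Plcg2 per exon base was 0.530 ± 0.156 and 0.573 ± 0.037 at the lower and higher dose, against 1.37 ± 0.35 with SCF (SD, n = 2 each). The Ras exchange factor gene Rasgrp4, which acts downstream of phospholipase Cγ, was lower at both doses (-1.43 ± 0.17 and -1.47 ± 0.17), with SCF against IL-3 (-0.96 ± 0.15) and in the combinations against TGF-β alone (-1.91 ± 0.15). Src was lower with SCF than with IL-3 (-2.77 ± 0.54) and higher when TGF-β was added (2.45 ± 0.54 and 3.14 ± 0.51). It lay at 1.89 to 2.50 CPM with SCF and 7.12 to 23.7 CPM in all other libraries. In SCF replicates 1 and 2, 3 counts corresponded to 1.5 and 1.89 CPM, so these Src changes rest on very few counts with SCF. The Src value at the lower dose missed the threshold with limma-voom (adjusted p = 0.0848) and without replicate 1 of the low-dose combination (0.220) or replicate 1 or 2 of SCF (0.0891 and 0.0818). The calls named here for Plcg1 and Rasgrp4, and those for Src at the higher dose and against IL-3, held in all 11 to 13 alternatives.

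Of the 10 calcium genes, the potassium channel gene Kcnn4, whose current sustains calcium entry, rose in 5 of the 7 comparisons. It stood at 364.7 and 454 CPM and at 467 and 459.4 CPM in the low-dose and high-dose combinations, against 168.2 and 219.3 CPM with SCF (1.08 ± 0.17 and 1.26 ± 0.17). TGF-β alone gave 316.5 CPM at the lower dose and 333.4 CPM at the higher dose, against 132.7 and 96.8 CPM in IL-3 (1.49 ± 0.18, adjusted p = 0.000107). No Kcnn4 library with TGF-β overlapped SCF or IL-3 in these comparisons, and these 3 calls held in all 11 alternatives. SCF against IL-3 (0.74 ± 0.18) lost its call without replicate 2 of SCF (adjusted p = 0.187) or of IL-3 (0.210), and the combinations against TGF-β alone (0.42 ± 0.15) lost it in 7 of 13 alternatives, DESeq2 among them (adjusted p = 0.0970). Stim1, the calcium sensor of the endoplasmic reticulum, was lower in the combinations than with TGF-β alone (-0.72 ± 0.13, edgeR adjusted p = 0.000821). That call held in all 13 alternatives. Against IL-3, neither TGF-β alone (-0.23 ± 0.15, adjusted p = 0.507) nor SCF (-0.24 ± 0.15, adjusted p = 0.353) was called for Stim1. When TGF-β was added to SCF, Stim1 fell at the lower and higher dose (-0.76 ± 0.15 and -0.68 ± 0.15). Without replicate 2 of SCF neither Stim1 value passed the test (adjusted p = 0.0592 and 0.0725), nor did the lower-dose value without replicate 2 of its combination (0.0677) or the higher-dose value without replicate 1 of its combination (0.102). The channel gene Orai1, at only 3.39 to 7.60 CPM, passed no test. Orai2, a channel gene at 37.2 to 69.6 CPM, was called lower with SCF against IL-3 (-0.70 ± 0.20). It was also called lower in the combinations against TGF-β alone (-0.565 ± 0.17). Both Orai2 calls were lost with DESeq2 (adjusted p = 0.165 and 0.181), among other alternatives.

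Of the 17 negative regulators, Pag1, the adaptor that recruits the Src kinase inhibitor CSK, fell with SCF (-0.78 ± 0.23). It fell further with TGF-β at each dose (-0.93 ± 0.25 and -1.43 ± 0.27). Pag1 was also lower in the combinations than with TGF-β alone (-1.28 ± 0.23, edgeR adjusted p = 0.000723), a call that held in all 13 alternatives. Pag1 stood at 29.1 and 17.8 CPM and at 16.5 and 17.4 CPM in the low-dose and high-dose combinations, 53.1 and 37.8 CPM with SCF, 54.3 CPM with low-dose and 44.3 CPM with high-dose TGF-β, and 72 and 86.3 CPM in IL-3. The value against IL-3 lost its call with DESeq2 (adjusted p = 0.157) and without replicate 2 of SCF (0.307) or replicate 1 or 2 of IL-3 (0.0649 and 0.261). That at the lower dose lost it with DESeq2 (0.221), with the compared groups fitted alone (0.0904) and without replicate 2 of the low-dose combination (0.335) or replicate 1 of SCF (0.383), and that at the higher dose without replicate 1 of SCF (0.0509). The phosphatase gene Ptpn22 was lower in the combinations than with TGF-β alone (-1.62 ± 0.27), a call that held in all 13 alternatives. It was also called lower with SCF against IL-3 (-1.76 ± 0.43). With TGF-β it went the other way, called higher in the low-dose combination against SCF (1.68 ± 0.42) and with TGF-β alone (1.37 ± 0.32). The high-dose combination against SCF (1.33 ± 0.43) was not called. These further Ptpn22 calls were each lost in some alternatives, those with TGF-β under DESeq2 among others. Inpp5d, which encodes SHIP1 and acts after Fcgr2b, lay at 657.6 to 818.8 CPM and passed no test, nor did the phosphatase genes Ptpn6 and Ptpn11.

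**Figure D4:**
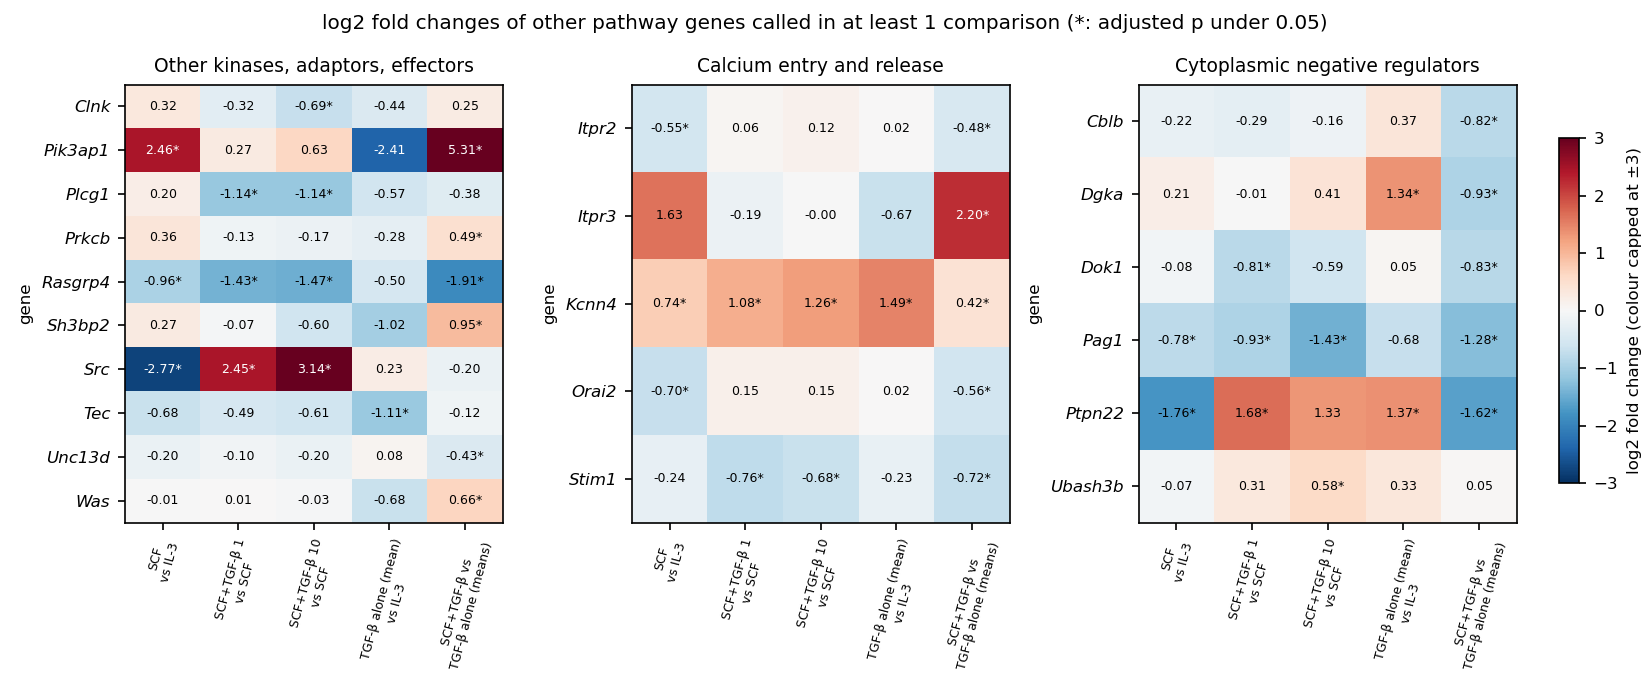
Log2 fold changes (colour and printed values) of 21 further pathway genes that passed the test in at least 1 comparison, by gene (rows) and comparison (columns); stars mark adjusted p under 0.05, colours are capped at 3 in either direction, and TGF-β doses are in ng/mL. Kcnn4 is higher in all 5 columns, and Plcg1, Rasgrp4 and Pag1 are lower when TGF-β is added to SCF at either dose.

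Likeness to the receptor chains was sought among 6106 tested genes averaging 20 CPM or more. Genes without a symbol, the 10 members, and predicted genes, clones and pseudogenes by name had been left out. The genes closest to each receptor chain were found by Pearson correlation of log2 CPM over the 10 libraries, which share treatments within groups. For Fcer1a these were the lysosomal activator gene Gm2a (r = 0.981), the adaptor gene Sla (0.975), the transporter gene Slc45a3 (0.975), Teddm2 (0.974) and the Argonaute gene Ago2 (0.971). For Fcer1g they were Myadm (0.967), the phosphatase gene Dusp3 (0.965), the selectin ligand gene Selplg (0.955), Cd59a (0.945) and the sulfotransferase gene Hs6st2 (0.938). For Ms4a2, which varied little, they were Chst12 (0.987), Jtb (0.907), Klhl7 (0.893), Csnk1a1 (0.876) and Orc2 (0.870).

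Replicate numbers ran with the level of several of the 10 genes. Fcer1a was higher in replicate 1 than in replicate 2 in all 4 groups with both, and Ms4a2, Fcer1g, Lat and Lat2 were higher in replicate 2 in all 4. Within each replicate number, each of the 10 genes, those that passed no test included, kept 1 direction in both combinations against SCF. Some of these log2 differences were as small as -0.007 for Ms4a2 and 0.012 for Plcg2. Both combinations were set against the same SCF library within each number, so their agreement is partly built in. The share of all tested genes with either pattern was not determined.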

How the data were processed

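RNA from 10 BMMC samples was turned into SmartSeq2 and Nextera XT libraries and sequenced as 2 x 38 bases, per the labels' protocols. The submitters' processing notes name STAR, HTSeq and DESeq2 with GRCm38 (mm10); their versions, the counting options and the annotation release are not given here. The authors' raw counts per gene were used as deposited. The 5 rows that name no gene held 73.4% to 83.6% of all counted reads or alignments and were left out. Their share was 83.6% in low-dose TGF-β, 79.5% in high-dose TGF-β and 80.1% in IL-3 replicate 2. The low-dose and high-dose TGF-β libraries also had the fewest gene counts, 1295048 and 1237382. Comparisons with TGF-β alone therefore rest on the shallowest libraries. Symbols came from the paired gene table (49326 of 49671 rows), loci and exon lengths from GENCODE vM21 on GRCm38.

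Counts were fitted in R 4.3.3 with edgeR 4.0.16 (filterByExpr, TMM, 1 mean per group over all 10 libraries, quasi-likelihood test), leaving 4 residual degrees of freedom and a common biological coefficient of variation of 0.126. The spread of the 2 groups with 1 library came from the others. Adjusted p is Benjamini-Hochberg over all 11247 tested genes in each of 7 comparisons, with a threshold of 0.05. Standard errors are |log2 fold change| / √F. The pipeline was tested on simulated data. Between replicates, chi-square per gene was 3.20 to 4.12, so none agreed within counting error. Alternatives were DESeq2 1.42.0, limma-voom (limma 3.58.1), other scaling and filters, the groups compared alone, a replicate block and leaving out each library. The members, lists and tests were chosen with earlier results of these data known. Named genes were all members, list genes called in a comparison, of which some are given, and the 5 closest in pattern to each receptor chain. Some items are not reported here.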

Additional observations from a re-analysis of the deposited data

How the results depend on the processing

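Over the 10 genes and 7 comparisons, 755 of 840 log2 fold changes recomputed under an alternative kept their direction and their side of the threshold, 29 lost a call, 9 gained one and 47 changed sign, all of them among values that were not called. The calls of Fcer1a in the high-dose combination and with TGF-β alone, of Lat2 in the high-dose combination, and of Lat and Fcgr2b in the combinations against TGF-β alone held throughout. With DESeq2 the count of genes called fell to 1 for SCF against IL-3 and to 2 for the high-dose combination against SCF, against 2 and 4. Leaving out 1 library gave 0 to 1 genes called for SCF against IL-3, 0 to 2 for the low-dose and 2 to 3 for the high-dose combination against SCF, 1 to 2 for TGF-β alone and 2 to 3 for the combinations against it. Where a group then had 1 library, that library was assumed to vary like the other groups. In these comparisons the causes were not tested.

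Same-numbered libraries were not shown to pair: their deviations correlated at 0.197 to 0.231 among the 3 groups with SCF but at -0.003 to 0.022 with IL-3. With the replicate block, 4 genes were called in the low-dose combination against 2 without it, 5 against 4 in the high-dose combination and 3 against 2 with TGF-β alone, and other counts stayed at 2, 3 and 0. The genes gained with the block were Fcer1g (adjusted p = 0.00982) and Lat (0.00293) in the low-dose combination, Syk in the high-dose combination (0.0227) and Fcer1g with TGF-β alone (0.00958).

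Some signs turned when 1 library was left out, on the log2 scale. For SCF against IL-3 these ranges were -0.040 to 0.087 for Fcer1a, -0.011 to 0.091 for Ms4a2, -0.029 to 0.23 for Fcer1g, -0.22 to 0.043 for Btk, -0.42 to 0.099 for Syk and -0.33 to 0.22 for Plcg2. For the low-dose combination against SCF these ranges were -0.26 to 0.0003 for Btk. For the high-dose combination against SCF these ranges were -0.39 to 0.029 for Btk. For the high-dose against the low-dose combination these ranges were -0.089 to 0.21 for Lyn, -0.25 to 0.17 for Btk, -0.26 to 0.092 for Fcgr2b, -0.17 to 0.14 for Lat, -0.10 to 0.038 for Ms4a2 and -0.20 to 0.042 for Fcer1g. For TGF-β alone against IL-3 these ranges were -0.52 to 0.036 for Plcg2 and -0.15 to 0.047 for Fcgr2b. For the combinations against TGF-β alone these ranges were -0.19 to 0.22 for Syk, -0.026 to 0.044 for Ms4a2, -0.035 to 0.19 for Fcer1g and -0.0005 to 0.18 for Lat2. For the interaction these ranges were -0.13 to 0.12 for Fcer1g, -0.15 to 0.11 for Btk, -0.080 to 0.037 for Ms4a2, -0.073 to 0.45 for Syk and -0.16 to 0.018 for Lat2. The value for Ms4a2 in the combinations against TGF-β alone was -0.0027 with a filter of at least 10 CPM, and the interaction of Fcer1g was 0.0003 with no filter.

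Over all genes, DESeq2 called 471 against edgeR's 1031 for SCF against IL-3, 270 against 522 and 438 against 941 for the low-dose and high-dose combinations, 225 against 391 for TGF-β alone and 1518 against 2780 for the combinations against it. Of the 55 further pathway genes, 2 to 10 were called across alternatives for SCF against IL-3, 5 to 10 and 6 to 16 for the low-dose and high-dose combinations, 1 to 10 for TGF-β alone and 6 to 23 for the combinations against it. With as few as 73 counts of Fcgr2b in a library, its changes, and likewise those of Syk and Plcg2, were measured with standard errors of 0.16 to 0.26, against 0.097 to 0.15 for Fcer1a.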
